A study of Mus musculus with 6 samples.

Results

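The genes described here are 39 enzymes, transporters and regulators of glycolysis, of the pentose phosphate pathway and of the entry of pyruvate into mitochondria, out of 25751 genes in the table. They were chosen by function, with earlier results of these data known. They are followed step by step, from glucose uptake to lactate export, to the pyruvate dehydrogenase complex and to the pentose phosphate branch. The data were RNA-seq gene counts of 6 libraries of wild-type primary mouse myeloid cells, 3 from control cells and 3 from cells given TMAO, all labelled 24 h. TMAO (trimethylamine N-oxide) is a small metabolite of blood that forms when the liver oxidises a product of gut bacteria, and the stated question was what it does to myeloid cells. The sample descriptions name the treated libraries T-BMDM and the untreated ones Control and do not explain the difference, so any difference in cell preparation cannot be told apart from TMAO itself. The labels used here give no dose, sex or age, and nothing in them tells if replicates are separate cultures, animals or preparations. The p-values therefore set the difference between the groups only against the spread among these libraries within a group, and that spread may be technical.

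Glycolysis splits glucose into pyruvate in the cytosol. Hexokinases trap the sugar in the cell, phosphofructokinase-1 makes the committed step, and most steps can be carried out by any of several isozymes, which differ in their regulation and in the tissues that use them. Pyruvate is then either reduced to lactate, which leaves the cell through monocarboxylate transporters, or imported into mitochondria and oxidised to acetyl-CoA by the pyruvate dehydrogenase complex, which kinases switch off and phosphatases switch on. The pentose phosphate pathway branches off at glucose 6-phosphate and supplies NADPH and ribose, and activated macrophages and neutrophils are known for a high use of glucose by these routes.

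Markers of several cell types differed between the groups, and these values stand beside every result that follows. The libraries held 37759007 to 41735109 counts. Of 15 markers of neutrophils and their precursors, 13 were higher with TMAO and 1 was lower (edgeR adjusted p under 0.05), and their summed level was 473 to 515 CPM (counts scaled to library size) in controls and 4496 to 5745 CPM with TMAO. All 8 monocyte markers were higher, from a sum of 184 to 233 CPM to 1046 to 1103 CPM, and so were all 8 markers of dividing cells, from 44.5 to 48.2 CPM to 309 to 361 CPM. Of 11 macrophage markers, 4 were higher and 5 lower, with sums of 44058 to 48830 CPM and 39546.5 to 48412 CPM. Most of these sums was Lyz2, which did not pass (37023 ± 2335 CPM in controls and 37357 ± 4499 CPM with TMAO), and without it they were 8607 to 9197 CPM and 6522 to 6789 CPM. At least 2-fold lower were Mertk (9.94-fold), Fcgr1 (4.19-fold) and Adgre1 (3.24-fold), and no macrophage marker was at least 2-fold higher. The 4 that were higher were C1qa (1.69-fold), C1qb (1.60-fold), Mrc1 (1.26-fold) and C1qc (1.16-fold). Also lower were Cd68 (1.75-fold) and Csf1r (1.21-fold). B cell markers summed to 2.44 to 3.58 CPM in controls and 11.9 to 16.0 CPM with TMAO (5 of 6 tested higher, of 8 listed, with Pax5, Ebf1 and Vpreb3 at 0 in every control library). T and NK cell markers summed to 10.9 to 13 CPM and 3.82 to 5.42 CPM (of 6 listed, 2 were tested, 1 higher and 1 lower, with Cd3d and Nkg7 at 0 in every control library and Cd3e at 0 in every TMAO library). Erythroid markers summed to 2.20 to 5.74 CPM and 0.287 to 1.03 CPM (of 7 listed, 2 were tested and both were lower). In these bulk libraries, fewer cells of a type and less RNA per cell cannot be told apart, and the part of these markers in the results was not tested.

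All 39 members passed the filter on low counts. With TMAO 18 were higher, where 33.0% of the 14626 genes tested were higher, and 12 were lower, where 32.7% of all genes tested were lower (edgeR quasi-likelihood test, Benjamini-Hochberg adjusted p under 0.05). The other 9 members did not pass. The share of members that were higher was 46.2% and the share that were lower was 30.8%. The 3 libraries of one group lay wholly above or below the 3 of the other in 32 members (82.1%), where 71.0% of all genes tested were separated in this way. The median log2 fold change was 0.15 over the members and 0.01 over all genes tested. Among members past the test, 7 (17.9% of the 39) were at least 2-fold higher and 4 (10.3%) at least 2-fold lower, against 15.7% and 14.7% of all genes tested. A test for changes beyond 1.5-fold left 10 members higher and 6 lower, against 18.0% and 17.5% of all genes. The members' share of all counts was 1.22%, 1.26% and 1.15% in the control libraries and 1.68%, 1.58% and 1.73% in the TMAO libraries.

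**Figure D1:**
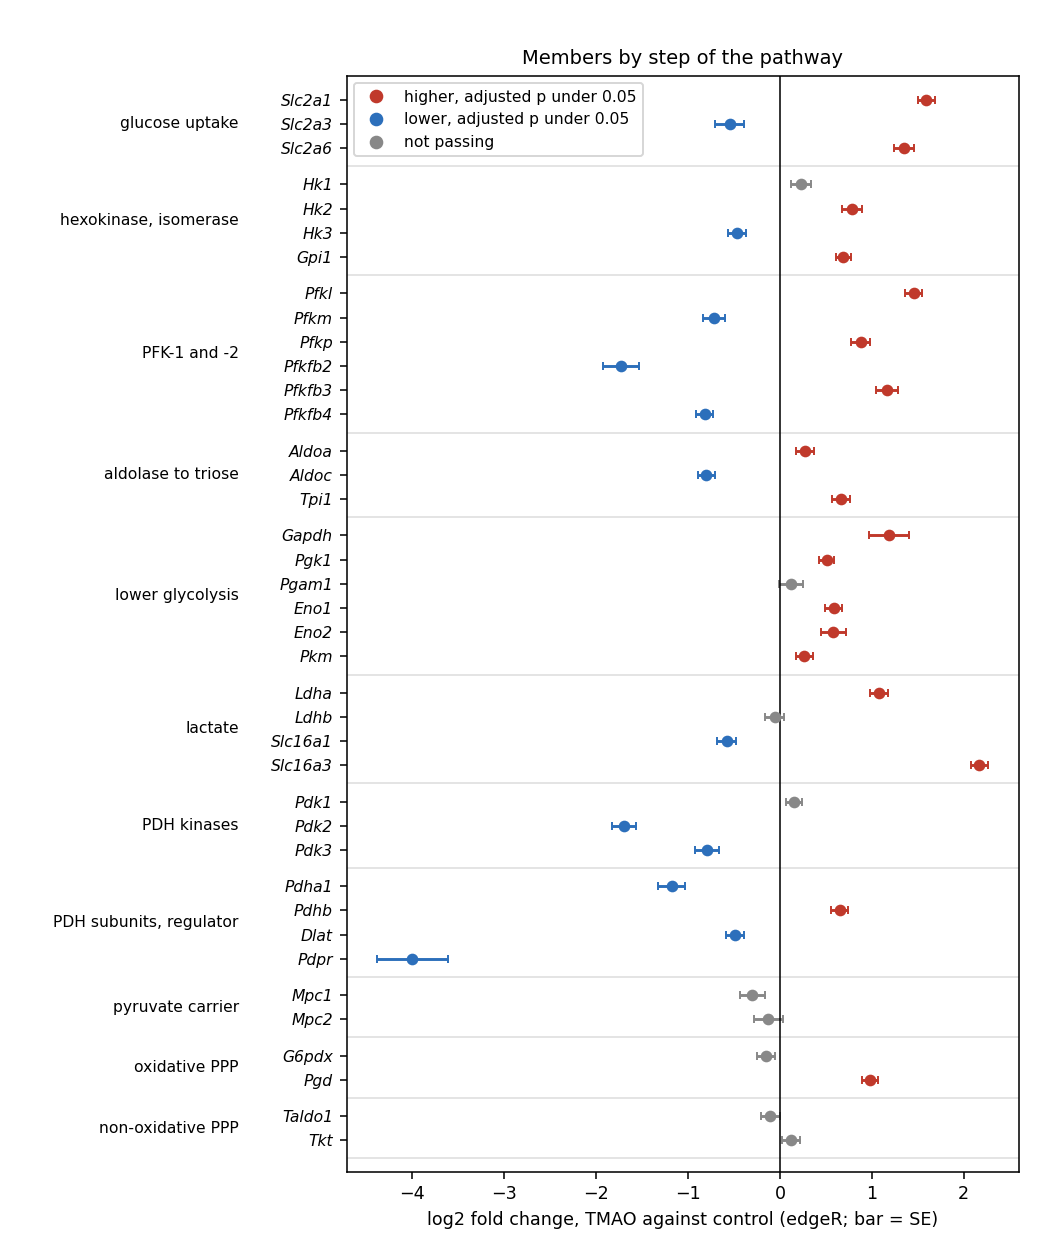
Log2 fold change of TMAO against control for each of the 39 members, grouped by step of the pathway, with bars for the standard error. Members past the test (edgeR adjusted p under 0.05) lie to the right where higher and to the left where lower, and in 6 of the 9 families of isozymes they lie on both sides of 0. The values run from 2.17 for Slc16a3 to -4.00 for Pdpr.

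Per kilobase of the longest annotated transcript, the order of the most abundant members was nearly the same in both groups. That transcript need not be the one expressed, so comparisons between genes are rough. Pyruvate kinase Pkm was the highest member, at 1045 CPM per kb in controls and 1256 with TMAO, followed by aldolase Aldoa at 1003 and 1212. Lactate dehydrogenase Ldha stood at rank 5 in controls (446 CPM per kb) and at rank 3 with TMAO (941), above enolase Eno1 (508 and 761) and transaldolase Taldo1 (609 and 566). The 5 lowest members per kb in controls were Slc2a3, Pfkfb2, Eno2, Pfkm and Pdpr.

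The members with the largest differences in each direction were the lactate exporter Slc16a3 and the glucose transporter Slc2a1, which were higher, and the pyruvate dehydrogenase phosphatase subunit Pdpr and the regulatory enzyme Pfkfb2, which were lower. Their promoters are printed because they are the regulatory sequences of the members that differed most, in both directions. Each run is the 250 bases before the gene's start in RefSeq's annotation of GRCm38.p6, read 5′ to 3′ on the gene's strand, and for Pfkfb2 it belongs to the first listed of its annotated starts. Capitals mark ACGTG or GCGTG on either strand, the core letters of the hypoxia response element, which the factor HIF-1 reads at known glycolytic promoters. The Slc16a3 run lies at chr11:120948817-120949066 on the + strand, Slc2a1 at chr4:119108495-119108744 on the + strand, Pdpr at chr8:111094495-111094744 on the + strand and Pfkfb2 at chr1:130715822-130716071 on the - strand.
Slc16a3: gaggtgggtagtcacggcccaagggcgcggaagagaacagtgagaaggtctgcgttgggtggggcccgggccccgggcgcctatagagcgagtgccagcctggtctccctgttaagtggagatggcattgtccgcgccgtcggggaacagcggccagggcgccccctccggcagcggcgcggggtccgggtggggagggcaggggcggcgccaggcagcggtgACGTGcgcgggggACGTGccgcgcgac
Slc2a1: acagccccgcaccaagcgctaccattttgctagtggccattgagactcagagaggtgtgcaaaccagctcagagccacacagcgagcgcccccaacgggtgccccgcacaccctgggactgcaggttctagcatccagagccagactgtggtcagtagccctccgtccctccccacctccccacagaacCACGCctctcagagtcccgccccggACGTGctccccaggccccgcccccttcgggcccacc
Pdpr: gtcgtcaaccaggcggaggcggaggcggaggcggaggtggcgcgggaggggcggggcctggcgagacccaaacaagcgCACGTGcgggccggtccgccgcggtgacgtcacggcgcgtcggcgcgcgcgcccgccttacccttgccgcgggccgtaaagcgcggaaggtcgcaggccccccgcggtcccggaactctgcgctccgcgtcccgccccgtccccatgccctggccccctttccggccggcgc
Pfkfb2: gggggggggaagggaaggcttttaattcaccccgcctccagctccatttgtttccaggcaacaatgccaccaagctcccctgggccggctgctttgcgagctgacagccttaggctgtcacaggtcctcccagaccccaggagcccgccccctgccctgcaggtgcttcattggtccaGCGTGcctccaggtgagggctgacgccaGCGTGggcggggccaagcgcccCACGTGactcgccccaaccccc

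The letters occurred in these promoters in both directions of change. In Slc16a3 they began 27 and 14 bases before the start, and in Slc2a1 61 and 36 bases before it. In Pdpr the matches began 172 and 171 bases before the start and overlap in 1 E-box (CACGTG), and Pfkfb2 held matches at 72, 44, 22 and 21 bases, the last pair again overlapping in CACGTG. RefSeq windows of 300 bases (250 before and 50 after the start) were found for 38 of the 39 members, 56 windows in all, and 44 of them (78.6%) held the hypoxia core, against 43.8% of all 32851 windows in the table. Among members higher with TMAO it was in 20 of 26 windows, among members lower with TMAO in 15 of 18, and among those that did not pass in 9 of 12. The E-box CACGTG, which holds ACGTG, was in 2 of 26, 5 of 18 and 0 of 12 windows in the same order, against 7.15% of all windows. The core letters of the antioxidant response element, TGACNNNGC on either strand, were in 7 of 56 member windows (12.5%) and in 12.4% of all windows. Member windows had a median of 20 CpG dinucleotides, against 7 over all windows, and both forms of the hypoxia core contain a CpG. A match says only that the letters are present.

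Transcripts of the glucose transporters differed in direction, and 2 of the 3 members rose while 1 fell, where 33.0% of all genes tested rose and 32.7% fell. Slc2a1 (ENSMUSG00000028645), which encodes GLUT1, the widely expressed glucose transporter of the plasma membrane, stood at 97.3, 85.0 and 82.3 CPM in the control libraries and 266, 262 and 270.1 CPM in the TMAO libraries. Every TMAO library was far above every control library, and the rise was 3.02-fold (log2 fold change 1.59, SE 0.09, edgeR adjusted p = 2.58e-07). Slc2a6 (ENSMUSG00000036067), a transporter of the same family, stood at 58.5, 58.7 and 46.1 CPM in controls and 136, 132 and 148 CPM with TMAO. Its groups did not overlap either, and it rose 2.55-fold (log2 fold change 1.35, SE 0.11, edgeR adjusted p = 3.01e-06). Slc2a3 (ENSMUSG00000003153), the high-affinity transporter GLUT3, was low throughout, at 5.66, 6.65 and 6.23 CPM in controls and 3.58, 4.43 and 4.67 CPM with TMAO. The TMAO libraries were the lower ones, with a log2 fold change of -0.55 (SE 0.16, edgeR adjusted p = 0.0106), and once the trend of fold change with transcript length was removed the log2 fold change was -0.06 and no longer passed (adjusted p = 0.774). Of counts per kb over these 3 transporters, Slc2a1 held 56.3% ± 2.56 in controls and 61.2% ± 1.16 with TMAO (mean ± SD, 3 libraries each), and Slc2a6 41.6% ± 2.56 and 38.3% ± 1.14.

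Among the 6 other glucose and hexose transporters found in the table only Slc2a9 and Slc2a8 passed the filter on low counts, and both fell. Slc2a9, a transporter of urate, went from 23.3 ± 1.29 to 6.02 ± 0.524 CPM (log2 fold change -1.95, edgeR adjusted p = 4.15e-07), and Slc2a8, an intracellular sugar transporter, from 15.7 ± 1.13 to 7.10 ± 0.787 CPM (log2 fold change -1.15, edgeR adjusted p = 2.72e-05). Both alpha-arrestins that restrain glucose uptake rose together with Slc2a1: Arrdc4 from 24.5 ± 0.799 to 69.3 ± 2.56 CPM (1.5 on the log2 scale, edgeR adjusted p = 3.01e-07) and Txnip from 182 ± 4.37 to 256 ± 14.5 CPM (0.49, edgeR adjusted p = 0.000382).

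At the hexokinase step Hk2 rose and Hk3 fell. Hk2 (ENSMUSG00000000628), the inducible hexokinase that docks on mitochondria, had 108, 96.2 and 102 CPM in the control libraries and 202, 153 and 172 CPM in the TMAO libraries. All 3 TMAO values were above all 3 control values, a 1.72-fold rise (log2 fold change 0.79, SE 0.11, edgeR adjusted p = 0.000116). Hk3 (ENSMUSG00000025877), the isozyme typical of myeloid cells, had 336, 328 and 297 CPM in controls and 246, 208 and 240.2 CPM with TMAO. The TMAO libraries were all below the controls (log2 fold change -0.47, SE 0.09, edgeR adjusted p = 0.00138). Hk1 (ENSMUSG00000037012), the housekeeping hexokinase, had 131, 124 and 116 CPM and 159, 124 and 152 CPM, with TMAO 2 level with a control library and the others above all controls. Its log2 fold change of 0.23 (SE 0.11) did not pass (edgeR adjusted p = 0.0873), and without TMAO 2 it was 0.33 and passed (adjusted p = 0.00884).

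Hk3 was the largest of the hexokinase transcripts per kb in both groups. It held 67.5, 68.6 and 67.0% of the family in the control libraries and 50.9, 53.3 and 52.8% in the TMAO libraries, while Hk2 held 12.7, 11.8 and 13.4% and 24.4, 22.9 and 22.1%. Neither pair of groups overlapped. The next enzyme, glucose 6-phosphate isomerase Gpi1 (ENSMUSG00000036427), which makes fructose 6-phosphate, had 631, 667 and 629.7 CPM in controls and 1013, 1022 and 1069 CPM with TMAO, again without overlap. It rose 1.61-fold (log2 fold change 0.69, SE 0.08, edgeR adjusted p = 3.15e-05).

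At the committed step 2 subunit genes rose and 1 fell, where 33.0% of all genes tested rose and 32.7% fell. Of the 3 subunits of phosphofructokinase-1, the liver-type Pfkl (ENSMUSG00000020277) had 126, 136 and 117 CPM in the control libraries and 343, 327 and 368 CPM in the TMAO libraries. It was higher in every TMAO library, 2.74-fold on average (log2 fold change 1.45, SE 0.09, edgeR adjusted p = 4.98e-07). The platelet-type Pfkp (ENSMUSG00000021196) also rose, 1.84-fold, from 77.6, 85.5 and 79.7 CPM to 165, 130.4 and 150.5 CPM (log2 fold change 0.88 with SE 0.10, edgeR adjusted p = 3.24e-05), with no overlap, and after removal of the length trend its log2 fold change was 1.53. The muscle-type Pfkm (ENSMUSG00000033065) fell from 15.9, 13.3 and 13.7 CPM to 8.60, 8.56 and 8.94 CPM (log2 fold change -0.72 with SE 0.12, edgeR adjusted p = 0.000398). Pfkm was the subunit with the lowest level per kb in both groups, and its share of the family was 11.4, 9.09 and 10.5% in controls and 2.62, 2.81 and 2.61% with TMAO. Pfkl made up 70.1, 71.6 and 69.2% of the subunit transcripts per kb in controls and 80.7, 83.0 and 82.8% with TMAO, and Pfkp 19.4% ± 0.874 and 15.2% ± 1.32. These shares keep the trend of fold change with transcript length. Against the 1.53 of Pfkp without that trend, Pfkl reached at most 1.56 under any alternative, so the lower share of Pfkp is uncertain. Pfkm overlaps Senp1 on the opposite strand and Gm26513 on its own, which together held 6968 counts over the 6 libraries against 2731 for Pfkm, and Pfkp overlaps Pitrm1 on the opposite strand (11024 counts against 26893). Without a stated strand setting, reads of such partners cannot be told apart, so Pfkm in particular is uncertain.

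The phosphofructokinase-2 enzymes make and break fructose 2,6-bisphosphate, the activator of phosphofructokinase-1, and their isozymes moved in opposite directions. Pfkfb3 (ENSMUSG00000026773), the isozyme with the strongest kinase activity relative to its phosphatase, had 86.4, 76.6 and 85.2 CPM in the control libraries and 213, 154 and 188 CPM in the TMAO libraries. All TMAO values exceeded all control values, a 2.24-fold rise (log2 fold change 1.16, SE 0.12, edgeR adjusted p = 1.41e-05). Pfkfb4 (ENSMUSG00000025648) had 53.5, 51.6 and 53.6 CPM in controls and 31.9, 27.6 and 30.5 CPM with TMAO. It fell in every TMAO library below every control library (log2 fold change -0.82, SE 0.09, edgeR adjusted p = 2.42e-05). Pfkfb2 (ENSMUSG00000026409), the heart isozyme, whose promoter is printed above, had 8.67, 7.61 and 11.1 CPM in controls and 3.20, 2.78 and 2.27 CPM with TMAO, which is 3.31-fold lower (log2 fold change -1.73, SE 0.19, edgeR adjusted p = 2.36e-05). Its groups did not overlap. The genes that overlap it, Yod1 on the opposite strand and Gm29427 and Gm37163 on its own, held 2368 counts over the 6 libraries against 1425 for Pfkfb2, so its value is uncertain too.

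In controls Pfkfb3 and Pfkfb4 were present at near-equal shares per kb, and with TMAO Pfkfb3 was the main one. Pfkfb3 held 51.0, 49.2 and 49.9% of the family's transcripts in the control libraries and 81.9, 79.0 and 80.9% in the TMAO libraries. Pfkfb4 held 43.5, 45.6 and 43.2% and 16.8, 19.5 and 18.0%, and Pfkfb2 5.86% ± 0.926 and 1.29% ± 0.238. This was the largest difference of share among the 9 families compared, 30.6 percentage points for Pfkfb3. Over the 9 families the isozyme with the largest change of share did not overlap between the groups in 8, the exception being the enolases. An exact two-sided permutation test over the libraries gave p = 0.1 for each of those 8 (adjusted p = 0.1125), the smallest p that 3 libraries against 3 can give. Each isozyme was picked by these same shares, so neither the lack of overlap nor the p-value is independent support. For comparison, the levels of 71.0% of all genes tested did not overlap between the groups. Of the other genes that control this step, Tigar, a phosphatase that lowers fructose 2,6-bisphosphate, had 15.3 ± 1.79 CPM in controls and 17.9 ± 0.391 CPM with TMAO and did not pass (edgeR adjusted p = 0.108), a gene named after its values were seen.

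**Figure D2:**
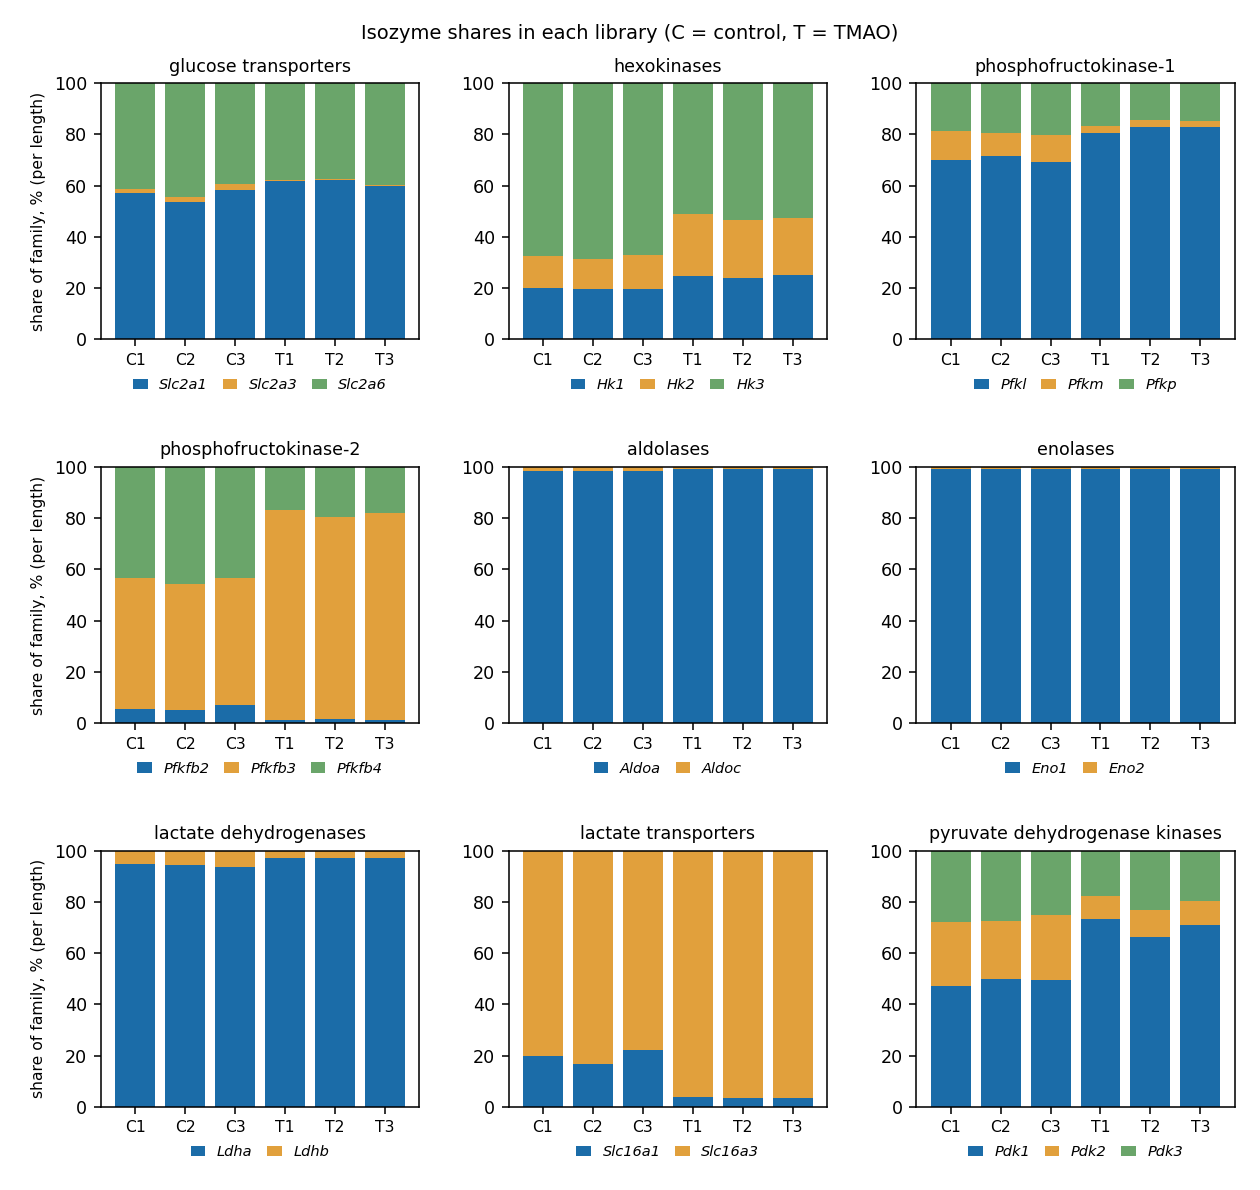
Share of each isozyme in its family, in percent of counts per kb of transcript, for every library (C1 to C3 control, T1 to T3 TMAO). The panels that differ most between the groups are phosphofructokinase-2, where Pfkfb3 takes 49.2% to 51.0% in controls and 79.0% to 81.9% with TMAO, the pyruvate dehydrogenase kinases and the lactate transporters, while Eno1 holds 99.1% to 99.4% of the enolases in every library.

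Between fructose 1,6-bisphosphate and the triose phosphates, the isomerase and the main aldolase rose and the minor aldolase fell. Aldoc (ENSMUSG00000017390), the brain-type aldolase, had 38.8, 43.3 and 42.2 CPM in the control libraries and 24.3, 22.3 and 24.7 CPM in the TMAO libraries. It was lower in every TMAO library (log2 fold change -0.80, SE 0.09, edgeR adjusted p = 3.48e-05). Tpi1 (ENSMUSG00000023456), triose phosphate isomerase, had 566, 616 and 505 CPM in controls and 842, 896 and 931 CPM with TMAO, a 1.58-fold rise without overlap (log2 fold change 0.66, SE 0.10, edgeR adjusted p = 0.000148). Aldoa (ENSMUSG00000030695), the muscle-type and general aldolase, had 1529.8, 1711 and 1419.7 CPM in controls and 1729, 1985 and 1917 CPM with TMAO. The lowest TMAO library was only just above the highest control library, and the log2 fold change was 0.27 (SE 0.10, edgeR adjusted p = 0.0314).

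The call of Aldoa did not hold under several alternatives. It was lost without control 1 (log2 fold change 0.25, edgeR adjusted p = 0.12), control 3 (0.20, adjusted p = 0.125), TMAO 2 (0.23, adjusted p = 0.0645) or TMAO 3 (0.26, adjusted p = 0.101). After removal of the GC trend it was 0.06 (adjusted p = 0.579), and after removal of the length trend it turned to -0.07 (adjusted p = 0.391). Aldoa was nearly all of the family's transcripts per kb in both groups, 98.5% ± 0.137 in controls and 99.3% ± 0.0781 with TMAO.

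In lower glycolysis 5 of the 6 members were higher and none was lower, where 33.0% of all genes tested were higher and 32.7% lower. Of these 5, Gapdh cannot be read from its own row, and the call of Pkm was lost under several alternatives. Eno1 (ENSMUSG00000063524), the general enolase, had 1051, 1119.5 and 919 CPM in the control libraries and 1466, 1550.4 and 1613 CPM in the TMAO libraries. Every TMAO library was above every control library (log2 fold change 0.58, SE 0.10, edgeR adjusted p = 0.000364). Eno2 (ENSMUSG00000004267), the neuronal enolase, rose from 9.89 ± 1.38 to 14.8 ± 1.10 CPM (log2 fold change 0.58, edgeR adjusted p = 0.00324), and the enolase shares of the groups overlapped, with Eno1 at 99.3% ± 0.149 and 99.3% ± 0.0255. Pgk1 (ENSMUSG00000062070), phosphoglycerate kinase, the first ATP-producing step, rose from 596 ± 26.3 to 849 ± 21.6 CPM (log2 fold change 0.51, edgeR adjusted p = 0.000268). Pgam1 (ENSMUSG00000011752), phosphoglycerate mutase, had 309 ± 17.9 CPM in controls and 336 ± 63.3 CPM with TMAO and did not pass (log2 fold change 0.12, edgeR adjusted p = 0.42). TMAO 2 was its lowest library, below all controls, and without it Pgam1 passed (log2 fold change 0.27, adjusted p = 0.0205), while after removal of the length trend the value was -0.16.

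Pkm (ENSMUSG00000032294), the pyruvate kinase gene whose M1 and M2 forms are splice variants that gene counts do not separate, had 2541 ± 140.3 CPM in controls and 3056 ± 263 CPM with TMAO. Its log2 fold change of 0.27 passed narrowly (SE 0.09, edgeR adjusted p = 0.0294). The call was lost without control 1 (0.27, adjusted p = 0.0939), control 3 (0.21, adjusted p = 0.109), TMAO 1 (0.24, adjusted p = 0.0562) or TMAO 3 (0.22, adjusted p = 0.132). It was also lost after removal of the length trend (0.15) and after removal of the GC trend (0.04).

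The value of Gapdh (ENSMUSG00000057666), glyceraldehyde 3-phosphate dehydrogenase, is uncertain. It had 19.7, 16.6 and 32.0 CPM in the control libraries and 53.4, 59.5 and 43.1 CPM in the TMAO libraries, with no overlap (log2 fold change 1.19, SE 0.22, edgeR adjusted p = 0.000726). These levels are far below those of its neighbours Tpi1 and Pgk1, also per kb. The GENCODE annotation of GRCm38 holds 113 gene models with near-identical sequence, of which 84 are in the table, and these hold 66.1% of the counts of Gapdh and its copies together. Summed with them, the level was 84.6 ± 2.68 CPM in controls and 135 ± 7.78 CPM with TMAO, still higher with TMAO. That sum was also far below Tpi1, at 562 ± 55.6 and 890 ± 44.7 CPM. Gapdh overlaps Iffo1 on the opposite strand, which held 5937 counts over the libraries against 8707 for Gapdh. The level of Gapdh cannot be read from its own row or from this sum, and without Gapdh 17 of 38 members were higher and 12 lower. Of the lesser-known genes around these steps, Pgp, a phosphatase that clears side products of glycolysis, rose from 24.3 ± 2.69 to 55.9 ± 6.79 CPM (log2 fold change 1.20, edgeR adjusted p = 1.19e-05), and the muscle enolase Eno3 from 4.38 ± 0.320 to 5.94 ± 0.498 CPM (0.44, edgeR adjusted p = 0.0219). Bpgm, which makes 2,3-bisphosphoglycerate, fell from 13.7 ± 2.27 to 8.39 ± 1.10 CPM (-0.71, edgeR adjusted p = 0.00239).

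The genes of lactate production and export held the largest rise among the members. Ldha (ENSMUSG00000063229), the lactate dehydrogenase subunit that favours lactate formation, had 811, 894 and 725 CPM in the control libraries and 1578, 1751 and 1796 CPM in the TMAO libraries. It was 2.11-fold higher, in every TMAO library (log2 fold change 1.08, SE 0.10, edgeR adjusted p = 7.73e-06). Ldhb (ENSMUSG00000030246), the subunit associated with lactate use, had 32.7, 37.4 and 34.8 CPM in controls and 30.4, 34.9 and 35.4 CPM with TMAO. Its groups overlapped (log2 fold change -0.06, SE 0.10, edgeR adjusted p = 0.621), and after removal of the length trend its log2 fold change was -0.45 (adjusted p = 0.000349). The share of Ldha in the pair was 94.3% ± 0.507 in controls and 97.3% ± 0.0473 with TMAO, per kb.

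The lactate transporters were divided. Slc16a3 (ENSMUSG00000025161), which encodes MCT4, the exporter of cells with high lactate production, had 106, 112 and 96.0 CPM in the control libraries and 449.7, 459.6 and 504 CPM in the TMAO libraries. No other member rose as far: 4.49-fold (log2 fold change 2.17, SE 0.09, edgeR adjusted p = 4.39e-08). Slc16a1 (ENSMUSG00000032902), which encodes MCT1, had 26.6, 22.9 and 27.9 CPM in controls and 17.2, 16.9 and 17.5 CPM with TMAO. It was lower in every TMAO library (log2 fold change -0.58, SE 0.11, edgeR adjusted p = 0.000743). Slc16a1 held 19.7, 16.7 and 22.2% of the pair's transcripts per kb in the control libraries and 3.62, 3.49 and 3.30% in the TMAO libraries, and Slc16a3 held the rest.

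The related transporter Slc16a7, which encodes MCT2, also fell, from 27.5 ± 1.97 to 4.67 ± 0.184 CPM (log2 fold change -2.55, edgeR adjusted p = 5.81e-08). Bsg, basigin, the chaperone that carries MCT1 and MCT4 to the membrane, was 280.2 ± 33.5 CPM in controls and 415 ± 38.3 CPM with TMAO (log2 fold change 0.57, edgeR adjusted p = 0.00107), and is named after its values were seen. Pcx, pyruvate carboxylase, rose from 5.0 ± 0.147 to 10.3 ± 1.40 CPM (1.04, edgeR adjusted p = 0.000105), and Me1, cytosolic malic enzyme, from 6.44 ± 0.730 to 13.3 ± 1.43 CPM (1.05, edgeR adjusted p = 8.68e-05). In all, 4 of the 7 tested genes of lactate and pyruvate transport and use rose and 1 fell. Among all genes tested, 33.0% rose and 32.7% fell.

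**Figure D3:**
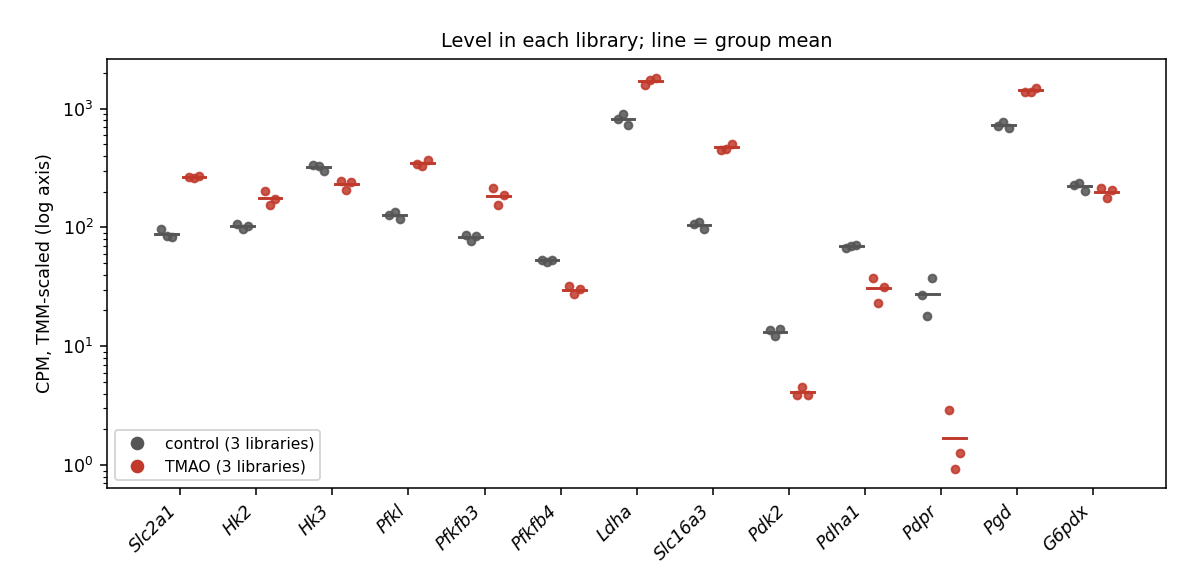
Level of 13 members in each library (points) with the group mean (line), in CPM on a log axis, control in grey and TMAO in red. Slc2a1, Hk2, Pfkl, Pfkfb3, Ldha, Slc16a3 and Pgd are higher in every TMAO library, Hk3, Pfkfb4, Pdk2, Pdha1 and Pdpr are lower in every one, and the groups of G6pdx overlap.

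At the entry of pyruvate into mitochondria, 2 of the 3 kinases among the members fell, and the carrier did not pass the test. Of the 4 members that are subunits or regulators of the complex, 3 fell and 1 rose. Of 8 further genes of the complex that were tested, 1 rose, 1 fell and 6 did not pass. Among all genes tested, 33.0% rose and 32.7% fell. Of the pyruvate dehydrogenase kinases, which phosphorylate the complex and turn it off, Pdk2 (ENSMUSG00000038967) had 13.6, 12.2 and 13.9 CPM in the control libraries and 3.91, 4.51 and 3.86 CPM in the TMAO libraries. It was 3.24-fold lower, without overlap (log2 fold change -1.70, SE 0.13, edgeR adjusted p = 2.22e-06). Pdk3 (ENSMUSG00000035232) had 14.2, 13.8 and 13 CPM in controls and 7.04, 9.0 and 7.59 CPM with TMAO, and fell too (log2 fold change -0.80, SE 0.13, edgeR adjusted p = 0.000333). Pdk1 (ENSMUSG00000006494), the kinase known as a hypoxia target, had 59.3, 61.4 and 62.4 CPM and 72.0, 63.7 and 67.7 CPM. Its groups did not overlap and the difference did not pass (log2 fold change 0.15, SE 0.09, edgeR adjusted p = 0.144), while it passed after removal of the length trend (0.51, adjusted p = 6.08e-05) and after removal of the GC trend (0.27, adjusted p = 0.014).

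The share of Pdk1 among the 3 kinases was 47.2, 49.7 and 49.3% in the control libraries and 73.3, 66.2 and 71.1% in the TMAO libraries per kb. That difference came with lower levels of Pdk2 (24.4% ± 1.38 of the kinases in controls, 9.79% ± 0.905 with TMAO) and Pdk3 (27.8, 27.4 and 25.3% and 17.6, 22.9 and 19.5%, library by library). Pdk1 itself did not pass the main test. These shares keep the trend of fold change with transcript length, and Pdk1 has the longest transcript of the 3 (5185 bases, against 2246 and 2115). With that trend removed Pdk1 passed as higher, so its part in the difference is uncertain. Pdk4, the kinase of fasting, was low, at 0.305 CPM in controls and 0.245 CPM with TMAO on average (edgeR adjusted p = 0.634), and is named after its values were seen.

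Subunits of the pyruvate dehydrogenase complex went different ways. Pdha1 (ENSMUSG00000031299), the catalytic E1 alpha subunit that the kinases phosphorylate, had 66.8, 69.5 and 71.5 CPM in the control libraries and 37.3, 23.3 and 31.2 CPM in the TMAO libraries. It was 2.26-fold lower, in every TMAO library (log2 fold change -1.18, SE 0.15, edgeR adjusted p = 5.78e-05). Pdhb (ENSMUSG00000021748), the E1 beta subunit that pairs with it, had 72.1, 74.1 and 70.7 CPM in controls and 103, 121 and 117 CPM with TMAO. It was higher in every TMAO library (log2 fold change 0.65, SE 0.09, edgeR adjusted p = 0.000106). The ratio of Pdha1 to Pdhb per kb was 0.773, 0.783 and 0.845 in the control libraries and 0.303, 0.161 and 0.224 in the TMAO libraries, a ratio chosen after the values were seen. Dlat (ENSMUSG00000000168), the E2 core, fell from 46.7 ± 3.42 to 33.3 ± 2.08 CPM (log2 fold change -0.49, edgeR adjusted p = 0.00117), whereas Dld, the E3 subunit shared with other complexes, rose from 87.9 ± 4.29 to 111 ± 8.52 CPM (0.33, edgeR adjusted p = 0.00786).

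The regulator Pdpr (ENSMUSG00000033624), a subunit of the phosphatase that turns the complex back on, had the largest fold change of all members. It had 27.0, 18.1 and 37.4 CPM in the control libraries and 2.93, 0.935 and 1.25 CPM in the TMAO libraries. The control libraries differed widely among themselves, and still the highest TMAO library was well below the lowest control library (log2 fold change -4.00, SE 0.38, edgeR adjusted p = 8.71e-06). TMAO 1 was the highest TMAO library, and without it the log2 fold change was -4.65. Between 34 and 1545 counts per library stood behind these values, and an overlapping gene on the opposite strand, 9430091E24Rik, held 400 counts over the 6 libraries against 3542 for Pdpr. The catalytic phosphatase Pdp1 fell as well, from 38.4 ± 2.17 to 24.9 ± 2.04 CPM (log2 fold change -0.62, edgeR adjusted p = 0.000279). Dld and Pdp1 were the only ones past the test among 8 further genes of the complex that were tested, and the other 6 did not pass. Among all genes tested, 33.0% were higher and 32.7% lower.

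The mitochondrial pyruvate carrier, a dimer of Mpc1 (ENSMUSG00000023861) and Mpc2 (ENSMUSG00000026568), did not pass the test in either subunit. Mpc1 was 13 ± 1.33 CPM in controls and 10.6 ± 1.16 CPM with TMAO, without overlap (log2 fold change -0.30, SE 0.13, edgeR adjusted p = 0.0684), and it passed without TMAO 1 (-0.37, adjusted p = 0.0332) and after removal of the length trend (-0.72, adjusted p = 0.00127). The pseudogene Mpc1-ps, at 25.7 ± 2.78 and 20.2 ± 2.58 CPM, was counted above Mpc1, though the search for near-identical copies did not list it. Reads may be split between these rows, so the level of Mpc1 is uncertain. Mpc2 was 27.0 ± 2.86 CPM and 24.7 ± 5.37 CPM (log2 fold change -0.13 with SE 0.15, edgeR adjusted p = 0.488), with overlapping groups.

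In the pentose phosphate pathway 1 of the 4 members rose, where 33.0% of all genes tested rose. Pgd (ENSMUSG00000028961), 6-phosphogluconate dehydrogenase, the later of the NADPH-producing steps, had 712, 765 and 685 CPM in the control libraries and 1385, 1389 and 1496 CPM in the TMAO libraries. It was 1.98-fold higher, in every TMAO library (log2 fold change 0.98, SE 0.09, edgeR adjusted p = 4.53e-06). G6pdx (ENSMUSG00000031400), glucose 6-phosphate dehydrogenase, the entry enzyme of the pathway, was 223 ± 16.5 CPM in controls and 199.9 ± 19.6 CPM with TMAO and did not pass (log2 fold change -0.16, SE 0.10, edgeR adjusted p = 0.188). It passed as lower after removal of the length trend (-0.23, adjusted p = 0.0348) and after removal of the GC trend (-0.24, adjusted p = 0.0382). G6pdx overlaps Ikbkg on the opposite strand, whose counts were 18116 over the 6 libraries against 49964 for G6pdx. Per kb, the ratio of Pgd to G6pdx was 2.26, 2.37 and 2.44 in the control libraries and 4.68, 5.68 and 5.27 in the TMAO libraries, chosen after the values were seen.

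The non-oxidative enzymes, which return pentoses to glycolysis, did not pass. Taldo1 (ENSMUSG00000025503), transaldolase, was 830.1 ± 52.5 CPM in controls and 771 ± 94.0 CPM with TMAO (log2 fold change -0.11, SE 0.10, edgeR adjusted p = 0.393), and passed as lower after removal of the length trend (-0.49, adjusted p = 7.10e-05). Tkt (ENSMUSG00000021957), transketolase, was 508 ± 33.8 CPM and 552 ± 54.4 CPM (log2 fold change 0.12 with SE 0.10, edgeR adjusted p = 0.304). Neighbouring enzymes were divided. Pgls, the lactonase between G6pdx and Pgd, rose from 70.9 ± 10.3 to 128 ± 19.5 CPM (0.85 on the log2 scale, edgeR adjusted p = 0.00027), and the ribose isomerase Rpia from 15.3 ± 0.741 to 27.7 ± 3.83 CPM (0.85, edgeR adjusted p = 0.000132). Prps2, which makes the activated ribose of nucleotide synthesis, fell from 29.2 ± 0.971 to 8.26 ± 0.845 CPM (-1.82, edgeR adjusted p = 4.76e-07), and H6pd, the form of glucose 6-phosphate dehydrogenase in the endoplasmic reticulum, from 129.7 ± 6.87 to 84.9 ± 10.9 CPM (-0.61, edgeR adjusted p = 0.000507).

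Glycogen and shuttle genes changed in both directions. Of 9 glycogen genes 2 rose and 5 fell, where 33.0% of all genes tested rose and 32.7% fell. Gys1, glycogen synthase, rose from 24.3 ± 1.57 to 60.1 ± 4.67 CPM (1.31 on the log2 scale, edgeR adjusted p = 1.78e-06) and Pgm1, a phosphoglucomutase, from 38.9 ± 3.53 to 63.7 ± 2.54 CPM (0.71, edgeR adjusted p = 9.32e-05). Pygb, a glycogen phosphorylase, fell from 85.3 ± 1.88 to 37.4 ± 4.76 CPM (-1.19, edgeR adjusted p = 5.18e-06) and Gyg, glycogenin, the primer of glycogen, from 102 ± 5.16 to 58.0 ± 1.99 CPM (-0.81, edgeR adjusted p = 1.5e-05). Of 6 genes of the cytosolic NADH shuttles, 2 rose and 1 fell, among them Mdh2, mitochondrial malate dehydrogenase (166 ± 12.8 to 274 ± 26.7 CPM, 0.72, edgeR adjusted p = 0.00011) and Got1, cytosolic aspartate aminotransferase (46.5 ± 4.58 to 74.5 ± 2.15 CPM, 0.68, edgeR adjusted p = 0.000128), which both rose. Over all lists of pathway genes outside the 39, 50 of 63 in the table were tested. Of these, 16 rose (32%), 16 fell (32%) and 18 did not pass, with a median log2 fold change of -0.06. These shares are close to those of all genes tested.

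Transcript length moved with the fold change over all genes. With genes split by length into 5 equal groups, the median log2 fold change was 0.49, 0.25, 0.04, -0.17 and -0.53, from the shortest to the longest transcripts, and the members' median length of 3195 bases was close to the 3027 of all genes tested. The 39 members fell into these groups as 3, 10, 12, 9 and 5. The 5 members that rose most had transcripts of 4335 (Slc16a3), 3260 (Slc2a1), 3730 (Pfkl), 2711 (Slc2a6) and 3289 bases (Gapdh). After removal of the length trend, 18 members were higher, against 34.4% of all genes, and 15 lower, against 31.4%. In 5 equal groups by GC content the median ran from -0.29 in the lowest to 0.27 in the highest, the members' median GC content was 52.6% against 49.4% over all genes tested, and after removal of that trend 17 members were higher and 13 lower, against 33.6% and 31.8% of all genes.

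**Figure D4:**
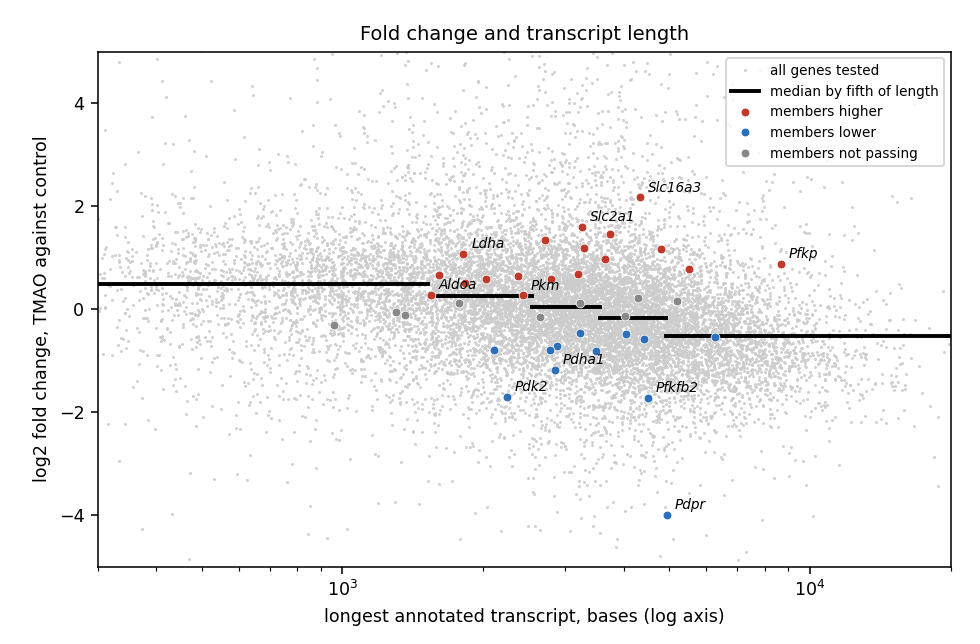
Log2 fold change of TMAO against control by length of the longest annotated transcript (log axis), for all genes tested (grey dots), the members (large points) and the median in each of 5 equal groups by length (black lines, 0.49 to -0.53). Slc16a3, Slc2a1, Ldha and Pfkp lie above the median of genes of their length, Pdk2, Pdha1, Pfkfb2 and Pdpr below it and Aldoa and Pkm close to it, and 264 genes lie outside the axes.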

How the data were processed

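The deposited values are raw counts, 1 whole number for each Ensembl gene ID and library, which the authors left unscaled. They cover 3 control and 3 TMAO libraries of mouse myeloid cells at 24 h. Per the labels' protocols, these are poly(A) libraries with random-primed cDNA, read from both ends after PCR. Sequencers of more than 1 maker are named, with no record of which library ran on which, so a platform difference between the groups cannot be told apart from the treatment. Per the submitters' processing notes, GRCm39 was the genome build. What aligned and counted the reads, with which annotation and strand setting, is not given in the sources used here, so reads of overlapping or near-identical genes may be split or lost.

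The whole table was fitted with edgeR 4.0.16 (R 4.3.3): filterByExpr (minimum count 10) kept 14626 of 25751 genes, scaling was by TMM, and p-values of a quasi-likelihood F test of group alone were adjusted by Benjamini-Hochberg over all genes tested, at 0.05. CPM values use the TMM-scaled library sizes. Errors after ± are SD (n = 3 libraries). Each SE was taken as the absolute log2 fold change over the square root of F. No pair of libraries in a group agreed within sampling noise (chi-square over genes, 13.0 to 65.6 per degree of freedom). Symbols, lengths and GC content came from GENCODE M21 on GRCm38, matched by ID (25386 rows), and promoter windows from RefSeq GRCm38.p6. Of 67 further pathway genes listed, 4 were not placed. Isozyme shares used counts per kb of the longest transcript and an exact permutation test over libraries. Division by length does not remove a trend of fold change with length. Near-identical copies were found with blastn 2.17.0 (at least 90% identity over 300 bases, a limit chosen after the data were seen). Length and GC trends were removed as lowess curves (span 0.3) over all genes.

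The members and all lists were chosen with earlier results of these data known. All 39 members are named. Values in every library are given for the members past the test with the largest change in each step (up to 2 per direction, mean at least 5 CPM) and for isozyme families whose shares did not overlap. Of the further pathway genes, up to 2 per direction and list with a mean of at least 5 CPM are named. The alternatives were other scalings (DESeq2 1.42.0 size factors, upper quartile, library size), filters, DESeq2, limma-voom (limma 3.58.1), newer moderation in edgeR, a test against a fold of 1.5, the 20 most abundant genes left out, the trend corrections, a replicate block, other lengths for shares, and each library left out. The code was tested on simulated counts.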

Additional observations from a re-analysis of the deposited data

How the results depend on the processing

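Under 19 alternatives, 16 of the 30 members past the test stayed past it in the same direction in every one, and 27 did so in all except the test against a fold of 1.5. That test, which asks for a change significantly beyond 1.5-fold, left 10 members higher and 6 lower (18.0% and 17.5% of all genes). The exceptions among the 30 were Aldoa, Pkm and Slc2a3. The cause was not tested. After removal of the length trend, 18 members were higher and 15 lower (34.4% and 31.4% of all genes). Leaving out 1 library gave 16 to 19 members higher and 12 or 13 lower (29.0% to 32.8% and 28.0% to 33.0% of all genes). Directions turned for Aldoa after removal of the length trend (log2 fold change -0.069), and among members that did not pass for Pgam1 (-0.16) and Mpc2 (0.044) in the same setting, and for Mpc2 (0.079) and Tkt (-0.023) after removal of the GC trend. With 1 library left out, Mpc2 ran from -0.29 to 0.022 and Ldhb from -0.11 to 0.0058, both above 0 only without TMAO 1. Of the 9 members that did not pass, 7 passed under at least 1 alternative. Without division by length, the TMAO minus control share was -16.6 percentage points for Hk3, 27.7 for Pfkfb3, 1.35 for Aldoa, 2.23 for Ldha and 15.6 for Pdk1. With coding length it was -16.7 for Hk3, 1.55 for Aldoa, 2.40 for Ldha and 16.1 for Pdk1. The main values were -15.4, 30.6, 0.765, 3.03 and 21.5 in the order Hk3, Pfkfb3, Aldoa, Ldha and Pdk1. With the replicate number as a block 18 members were higher and 12 lower (4887 and 4836 of all genes). The labels do not say what same-numbered libraries share. Their deviation correlations were 0.03, 0.13 and -0.07, and not every library correlated best with its own number. With 3 libraries a group, these values cannot tell if libraries were paired. At 3 libraries a group no exact two-sided permutation test over libraries can pass 0.05. Pdpr, Pfkm, Slc2a3, Pfkfb2 and Eno2 are the members with the fewest counts per kb in controls.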
